A study of Mus musculus with 6 samples.

Results

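The genes described here are 32 mouse genes of fatty acid oxidation and of the PPARα (peroxisome proliferator-activated receptor alpha) target programme, followed in the ileum across the change from milk to solid food. They were chosen by name, and a probe counted as theirs where the gene symbol in the files, or an older alias of it, is on the list. Of the 32 genes, 30 had a probe of their own (33 probes), and all 30 lay above background in at least 1 sample. No probe was named Hadhb, the beta subunit of the trifunctional protein of beta-oxidation. The probe for Fgf21, the fasting hormone, names a second locus in 1 annotation and was detected on 0 of 21 arrays, so it was left out. Over the whole series 12196 genes were tested.

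Total RNA from C57BL/6J ileum was hybridized to 1-colour oligonucleotide arrays (Phalanx Mouse OneArray) for 6 samples in 5 groups. The SPF postweaned (n = 1) and germ-free postweaned (n = 1) samples were taken after weaning. The humanized gnotobiotic (n = 1), SPF (n = 1) and germ-free (n = 2) preweaned samples were taken before it. SPF mice are conventional mice kept free of specific pathogens, germ-free mice live in isolators without microbes, and the humanized gnotobiotic mouse carries a community whose content the labels do not give. No genotype or drug treatment is labelled, an age of 3 weeks appears only in the design text, for the gnotobiotic animal and possibly its germ-free counterpart, and the labels do not say whether a sample is 1 mouse or a pool. No label says that the 2 germ-free preweaned samples came from separate litters, so their gap measures the spread between those samples only, and it is the only spread between samples in the design. The headers use the same array numbers in both samples, so the pair crosses 2 runs of numbering. The part of this in the gap was not tested.

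Fatty acids enter oxidation as acyl-CoA. Carnitine carries the long ones into mitochondria, where repeated rounds of dehydrogenation, hydration and thiolysis release acetyl-CoA, while peroxisomes shorten the very long and branched ones. PPARα is a nuclear receptor that binds fatty acids and, paired with RXR, turns on many genes of both routes. Milk is a high-fat diet and standard chow a low-fat one, and in rodents the suckling small intestine is known for high fatty acid oxidation and for making ketone bodies.

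Each sample had 3 arrays, except the germ-free preweaned sample 1 with 6 in 2 column sets. Between 29.8% and 50.3% of probes were detected per array. Levels are log2 of the quantile-normalized intensity plus 50, so 1 unit is 2-fold, and differences of dim probes are understated. The median spread between arrays of a sample was 0.07 to 0.16 (SD), and arrays are not counted as replicates. The samples were not alike in composition. Suckling enterocyte markers (12 genes, most of them lysosomal or endocytic) had a summed intensity of 41827 in SPF and 56043 in germ-free postweaned ileum. The sum was 57404 in the humanized sample, 218709 in SPF preweaned ileum, and 282778 and 70658 in germ-free preweaned 1 and 2. Humanized and germ-free preweaned 2 thus lay near the postweaned samples on that measure. Dbp, a clock output gene, was low in the same pair of samples that had most suckling marker signal. It was at 9.57 in SPF preweaned and 9.53 in germ-free preweaned 1, against 12.24 to 12.87 in the other 4. Of 10 clock genes tested, Dbp included, 3 were 2-fold or more higher after weaning in SPF ileum (10.5% of all genes). Of the same genes 1 was lower (8.64% of all genes), with a median of -0.21, so the list as a whole did not follow Dbp. The Y-linked Ddx3y was not detected on any array of either postweaned sample, nor in the second column set of germ-free preweaned 1 (6.01), and was detected on every other array, at 9.17 to 9.84 over the preweaned samples and the first column set (9.63). Uty was detected on the same arrays as Ddx3y, and so was Eif2s3y, except that only 1 of 3 germ-free preweaned 2 arrays detected it. Kdm5d was detected on 3 of 3 arrays of the first column set and 0 of 3 of the second. It was detected on 2 of 3 humanized, 2 of 3 SPF preweaned, 0 of 3 germ-free preweaned 2 and 1 of 3 SPF postweaned arrays (6.60). Xist was detected on 1 array in all, of germ-free postweaned ileum. The column sets of germ-free preweaned 1 thus cannot all be repeats of 1 RNA and may be 2 animals, which the labels do not say. They were averaged as 1 sample, and of the 30 genes Pdk4 alone was 2-fold or more apart between them, at 9.28 in the first and 11.28 in the second (1.1% of all genes were 2-fold higher and 1.82% lower in the first). Between germ-free preweaned 1 and 2, 7 of the 30 genes were 2-fold or more higher in the first and 6 lower, beside 9.28% and 9.92% of all genes. The 8 enterocyte markers tested were above background in every sample, whereas of 5 ileal markers only 2 were in the humanized sample. In tissue RNA, fewer cells of a type and less RNA per cell cannot be told apart.

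Much of the set was lower after weaning in SPF ileum. Of the 30 genes, 15 were 2-fold or more lower and 0 higher in the postweaned than in the preweaned SPF sample, beside 8.64% of all genes lower and 10.5% higher. Their median log2 difference was -0.97, against -0.04 over all genes tested. The genes lower by 2-fold or more span the receptor itself (Ppara), the mitochondrial gate (Cpt1a), the thiolases Acaa2 and Acaa1b, the thioesterases Acot1 and Acot2, the fuel switch kinase Pdk4 and the lipid droplet protein Plin2. For 11 of the 15 the difference was larger than the gap between the 2 germ-free preweaned samples in the same gene (6.46% of all genes). The exceptions were Angptl4, Slc25a20, Pex11a and Plin2. With 1 sample on each side and 1 residual degree of freedom, limma called 0 genes (0%) at an adjusted p under 0.05, and 627 genes, 5 of them members, had an unadjusted p under 0.05. The 5 were Pdk4, Acsl1, Acadl, Acaa2 and Acaa1b, each with a limma adjusted p of 0.944.

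**Figure D1:**
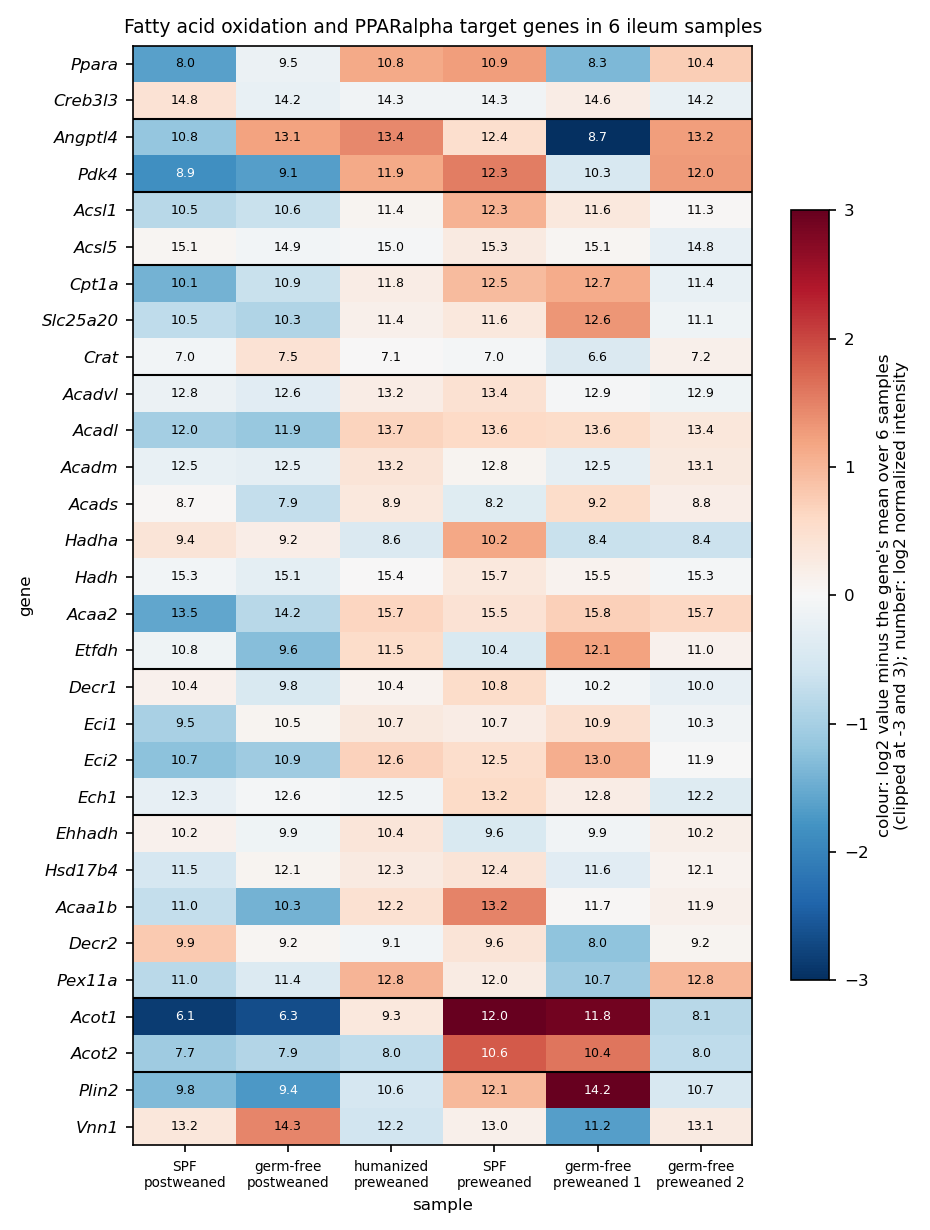
Level of each of 30 genes in the 6 ileum samples. Numbers are log2 normalized intensity, colours give the distance from the gene's mean over 6 samples (clipped at -3 and 3), and lines separate the roles from regulators (top) to lipid droplet and pantetheinase genes (bottom). Most rows are blue in the 2 postweaned columns at the left, and Acot1 reads 6.09 in SPF postweaned and 12.05 in SPF preweaned ileum, while germ-free preweaned 1 and 2 differ in many rows.

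Among the regulators, Ppara itself differed between samples. Ppara stood at 8.00 in SPF and 9.45 in germ-free postweaned ileum, at 10.76 in humanized, 10.87 in SPF and 8.28 and 10.36 in the 2 germ-free preweaned samples. It was high in 3 of 4 preweaned samples, and germ-free preweaned 1 lay down with SPF postweaned. The SPF weaning difference was -2.88 (limma SE 1.22, adjusted p = 0.953), a level 7.35-fold lower, and the germ-free one was 0.13. A dimmer second Ppara probe was above background in 1 sample only. Its differences of -0.96 in SPF and -0.97 in germ-free ileum thus rest mostly on undetected signal. Creb3l3 encodes a membrane-bound transcription factor of liver and gut that works with PPARα in mouse liver. It was bright everywhere, between 14.17 and 14.83, and the SPF weaning difference was 0.52.

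Angptl4 and Pdk4 are PPARα targets of which the first makes a secreted inhibitor of lipoprotein lipase and the second a kinase that shuts off pyruvate dehydrogenase and so spares glucose. Pdk4 was at 8.92 in SPF and 9.12 in germ-free postweaned ileum, and at 11.90 in humanized, 12.29 in SPF and 10.28 and 12.04 in germ-free preweaned ileum. Both postweaned samples lay below all 4 preweaned ones, and of the column sets of germ-free preweaned 1 even the lower one (9.28) was above both, with a difference of -0.17 for germ-free postweaned ileum against it. The SPF level was 10.3-fold lower after weaning (-3.37, limma SE 1.06), and the germ-free level 4.13-fold lower (-2.05, SE 0.92). Angptl4 was at 10.79 in SPF and 13.14 in germ-free postweaned ileum, and at 13.38 in humanized, 12.44 in SPF and 8.72 and 13.20 in germ-free preweaned ileum. Its lowest and nearly its highest levels were the 2 germ-free preweaned samples, 4.47 apart. In that setting its SPF weaning difference of -1.65 (limma SE 2.48) is within the pair's gap. The germ-free weaning difference was 2.18 over the pair, 4.42 against the first sample and -0.05 against the second.

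Fatty acids are activated by long-chain acyl-CoA synthetases. Acsl1 was 3.69-fold lower after weaning in SPF ileum (-1.88, limma SE 0.48), with 10.45 in SPF and 10.63 in germ-free postweaned ileum and 11.33 to 12.34 in the preweaned samples. Acsl5, the more intestinal form, kept between 14.76 and 15.28 in all 6 samples.

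The carnitine shuttle moves the activated acids across the inner membrane. Cpt1a, its rate-setting transferase, was at 10.14 in SPF and 10.90 in germ-free postweaned ileum, and at 11.79 in humanized, 12.51 in SPF and 12.69 and 11.35 in germ-free preweaned ileum. Each preweaned sample lay above both postweaned samples. The SPF level was 5.18-fold lower after weaning (-2.37, limma SE 0.86) and the germ-free one 2.17-fold lower (-1.12, SE 0.74). A dimmer second Cpt1a probe gave -0.09 in SPF and -1.09 in germ-free ileum, so the probes disagree on the SPF difference. Slc25a20, the carnitine acylcarnitine exchanger, was at 10.51 in SPF and 10.34 in germ-free postweaned ileum, and at 11.41 in humanized, 11.56 in SPF and 12.58 and 11.13 in germ-free preweaned ileum. The groups did not overlap here either. Slc25a20 was lower after weaning by 1.06 in SPF and 1.51 in germ-free ileum on the log2 scale, and its second probe read -1.83 and -0.77 for the same comparisons. Crat, which handles short acyl groups, was dim at 6.64 to 7.51, and no array of the SPF or germ-free preweaned samples detected it.

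In the mitochondrial beta-oxidation core, 2 of 8 measured genes were 2-fold or more lower after weaning in SPF ileum and 4 of 8 in germ-free ileum, beside 8.64% and 12.7% of all genes. Acaa2, the thiolase of the last step, was at 13.50 in SPF and 14.23 in germ-free postweaned ileum, and at 15.69 in humanized, 15.49 in SPF and 15.78 and 15.67 in germ-free preweaned ileum. The 4 preweaned samples spanned less than the step down to either postweaned sample, and 4 arrays read over 60000 for it, near the highest intensity in the files (65492). It was 3.98-fold lower in SPF (-1.99, limma SE 0.46) and 2.83-fold lower in germ-free ileum (-1.50, SE 0.40). Acadl, the long-chain acyl-CoA dehydrogenase, had 12.04 in SPF and 11.92 in germ-free postweaned ileum, and 13.72, 13.64, 13.60 and 13.39 in the humanized, SPF and 2 germ-free preweaned samples. The postweaned and preweaned levels did not overlap. Acadl was 3.04-fold lower in SPF (-1.60, limma SE 0.47) and 2.98-fold lower in germ-free ileum (-1.58, SE 0.41).

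Etfdh passes electrons from the acyl-CoA dehydrogenases to ubiquinone. Its level was 10.77 in SPF and 9.64 in germ-free postweaned ileum, and 11.45 in humanized, 10.44 in SPF and 12.11 and 11.02 in germ-free preweaned ileum. SPF preweaned ileum held the lowest of its preweaned levels, below SPF postweaned. In SPF ileum it differed by 0.33 after weaning, and in germ-free ileum by -1.93 (limma SE 0.65). The other core genes differed by less than 2-fold over weaning in SPF ileum. They are the dehydrogenases Acadvl (-0.63), Acadm (-0.30) and Acads (0.42) for very long, medium and short chains, Hadha (-0.77, with 0.80 as the SD over SPF postweaned arrays) of the trifunctional protein, and Hadh (-0.40), which acts on shorter hydroxyacyl-CoA. Hadh read over 60000 on 3 arrays.

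Unsaturated acids, plentiful in milk, need helper enzymes that move or remove double bonds. Eci2, an enoyl-CoA isomerase found in mitochondria and peroxisomes, was at 10.71 in SPF and 10.88 in germ-free postweaned ileum, and at 12.62 in humanized, 12.46 in SPF and 13.03 and 11.93 in germ-free preweaned ileum. No preweaned sample came within 1 log2 unit of either postweaned sample. The differences were -1.75 in SPF (limma SE 0.75) and -1.60 in germ-free ileum (SE 0.65). Its mitochondrial relative Eci1 was lower by 2.29-fold in SPF ileum only at that threshold, with 9.48 in SPF and 10.54 in germ-free postweaned ileum against 10.34 to 10.92 in preweaned ileum. The dienoyl-CoA enzymes Decr1 and Ech1 differed by -0.41 and -0.84 in SPF ileum.

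Among 5 peroxisomal genes, 2 were 2-fold or more lower after weaning in SPF ileum, beside 8.64% of all genes. Acaa1b, a peroxisomal thiolase that PPARα agonists induce in rodent liver, was at 10.99 in SPF and 10.29 in germ-free postweaned ileum, and at 12.17 in humanized, 13.20 in SPF and 11.74 and 11.86 in germ-free preweaned ileum. All preweaned samples were above both postweaned ones. Acaa1b was 4.61-fold lower in SPF (-2.21, limma SE 0.46) and 2.84-fold lower in germ-free ileum (-1.50, SE 0.40). Its close relative Acaa1a, which is not on the list, was 0.49 higher after weaning in SPF and 1.15 higher in germ-free ileum. Pex11a, which drives peroxisome division, was at 10.96 in SPF and 11.36 in germ-free postweaned ileum, and at 12.79 in humanized, 12.02 in SPF and 10.70 and 12.75 in germ-free preweaned ileum. Germ-free preweaned 1 held the lowest of the 6 levels, so its groups overlapped. The bifunctional enzymes Ehhadh and Hsd17b4 differed by 0.60 and -0.90 in SPF ileum, and Decr2, a peroxisomal dienoyl-CoA reductase, by 0.39.

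Acyl-CoA thioesterases cut acyl-CoA back to free acid, and Acot1 held the largest of the 30 weaning differences in SPF ileum. Acot1 is cytosolic and Acot2 mitochondrial, and they are neighbours in a cluster of 6 Acot genes on chromosome 12. Acot1 was at 6.09 in SPF and 6.28 in germ-free postweaned ileum, where no array detected it, and at 9.25 in humanized, 12.05 in SPF and 11.82 and 8.11 in germ-free preweaned ileum. It was above background in all 4 preweaned samples. The postweaned level was thus at least 39.3-fold lower in SPF and at least 5.42-fold lower in germ-free ileum, taking the lowest detected signal of an array as the bound. Acot2 was at 7.69 in SPF and 7.88 in germ-free postweaned ileum, and at 7.98 in humanized, 10.60 in SPF and 10.37 and 8.00 in germ-free preweaned ileum. It was high in 2 samples only, SPF preweaned and germ-free preweaned 1, and between 7.69 and 8.00 in the other 4. Acot2 was 7.54-fold lower in SPF (-2.91, limma SE 1.37) and 2.46-fold lower in germ-free ileum (-1.30, SE 1.19). The germ-free difference was -2.49 against the first preweaned sample and -0.11 against the second. Acot2 was detected on 2 of 3 arrays of germ-free postweaned ileum and 2 of 3 of germ-free preweaned 2. Both levels lie within the lowest detected signals of the arrays (6.68 to 8.08), so the -0.11 compares values near background.

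The promoters of these neighbours are shown because the genes were high in the same 2 samples, with those of Plin2 and Slc25a20, which carry a match to the motif bound by PPARα with RXR. Each window runs from 250 bases before to 50 bases after the RefSeq start (build GRCm38.p6), 5′ to 3′ on the gene's strand. The motif searched was a direct repeat of the half-site with 1 base between, AGGTCANAGGTCA, on both strands with at most 2 mismatches in its 12 fixed letters, and capitals mark a match. Acot1 lies at chr12:84009252-84009551 (+), Acot2 at chr12:83987611-83987910 (+), Plin2 at chr4:86670010-86670309 (-) and Slc25a20 at chr9:108661886-108662185 (+).
Acot1: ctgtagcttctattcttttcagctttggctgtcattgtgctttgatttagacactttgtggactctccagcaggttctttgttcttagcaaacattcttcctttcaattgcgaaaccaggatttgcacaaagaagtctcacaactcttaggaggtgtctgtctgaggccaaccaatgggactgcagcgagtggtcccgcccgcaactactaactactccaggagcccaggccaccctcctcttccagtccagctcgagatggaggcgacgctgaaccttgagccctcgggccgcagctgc
Acot2: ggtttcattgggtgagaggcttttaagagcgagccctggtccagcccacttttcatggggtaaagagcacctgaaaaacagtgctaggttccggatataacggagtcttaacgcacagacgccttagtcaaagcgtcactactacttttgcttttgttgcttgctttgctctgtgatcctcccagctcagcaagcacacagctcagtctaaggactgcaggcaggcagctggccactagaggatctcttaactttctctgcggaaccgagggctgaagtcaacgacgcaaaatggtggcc
Plin2: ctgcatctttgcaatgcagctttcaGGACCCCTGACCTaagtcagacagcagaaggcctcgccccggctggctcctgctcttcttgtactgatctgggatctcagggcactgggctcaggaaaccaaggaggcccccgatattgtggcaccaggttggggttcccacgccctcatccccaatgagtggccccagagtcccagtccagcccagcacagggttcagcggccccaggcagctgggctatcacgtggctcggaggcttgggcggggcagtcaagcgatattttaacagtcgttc
Slc25a20: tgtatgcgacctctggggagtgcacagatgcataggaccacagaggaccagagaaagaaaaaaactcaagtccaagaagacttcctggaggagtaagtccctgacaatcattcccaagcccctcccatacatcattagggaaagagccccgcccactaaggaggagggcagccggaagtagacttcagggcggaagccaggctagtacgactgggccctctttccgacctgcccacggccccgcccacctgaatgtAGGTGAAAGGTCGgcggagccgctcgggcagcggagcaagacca
The Plin2 match begins at base -225 from the start, on the opposite strand, and the Slc25a20 match at base 7 of the transcript. The Acot1 and Acot2 windows hold no match of these letters, and aligned to each other they were identical at 46.8% of 329 columns. A match was found in 3 of the 26 listed genes with a window (Creb3l3, Slc25a20 and Plin2), against 4.4% of 27025 genes and 3.86% of 32851 windows. A match describes letters and does not show binding.

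Plin2 coats lipid droplets and Vnn1 is a membrane pantetheinase that yields pantothenate and cysteamine. Plin2 was at 9.80 in SPF and 9.40 in germ-free postweaned ileum, and at 10.61 in humanized, 12.09 in SPF and 14.19 and 10.66 in germ-free preweaned ileum. The preweaned samples all lay higher, with 3.53 between the 2 germ-free ones. Plin2 was 4.89-fold lower in SPF (-2.29, limma SE 1.98) and 8.13-fold lower in germ-free ileum (-3.02, SE 1.71), and these errors are as wide as the pair's gap makes them. Vnn1 was at 13.15 in SPF and 14.27 in germ-free postweaned ileum, and at 12.24 in humanized, 12.97 in SPF and 11.17 and 13.07 in germ-free preweaned ileum. Both postweaned samples were above all 4 preweaned ones, though SPF postweaned only just (13.15 against 13.07). The differences were 0.19 in SPF and 2.15 in germ-free ileum (limma SE 0.98).

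**Figure D2:**
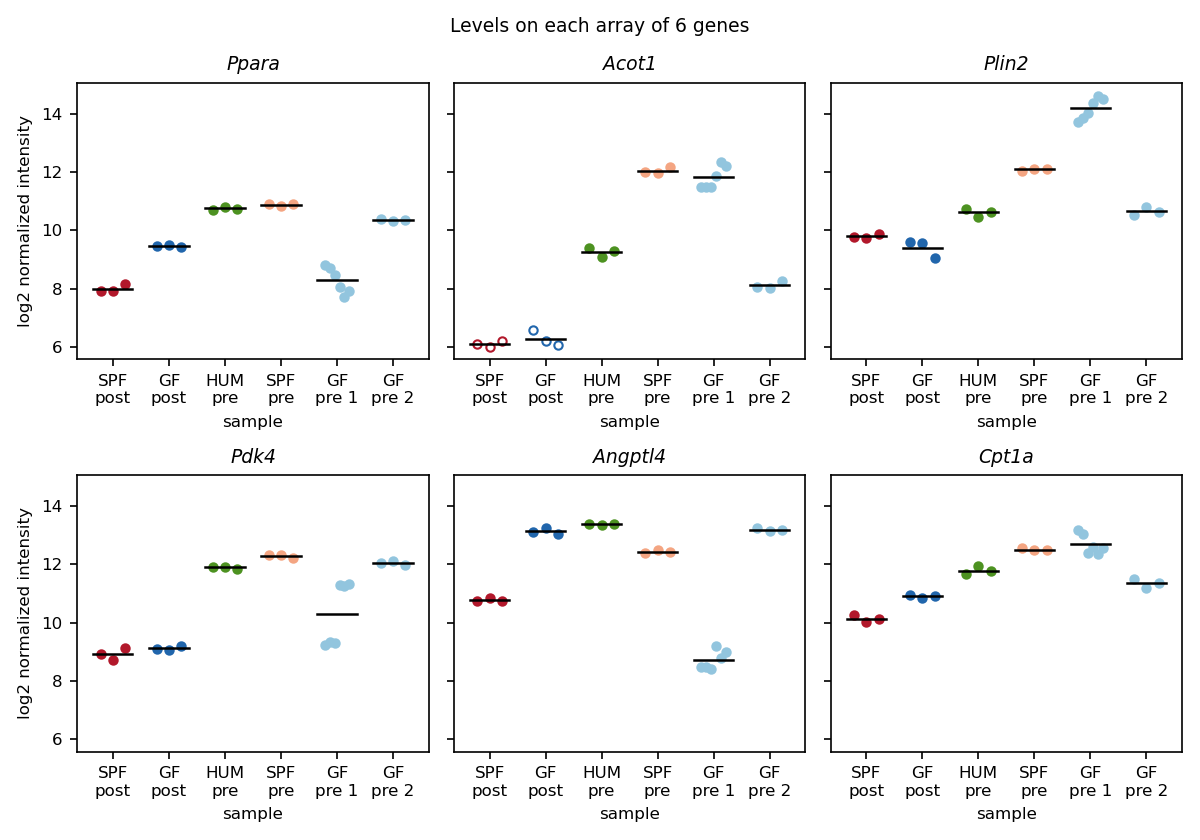
Levels of 6 genes on each array, in log2 normalized intensity (vertical axis), by sample (horizontal axis: SPF and germ-free (GF) postweaned, then humanized (HUM), SPF and germ-free preweaned). Points are arrays, open where the probe was not detected, and bars are sample values. Arrays of a sample lie close together, except for those of germ-free preweaned 1. Its 2 column sets read 9.28 and 11.28 for Pdk4, and its arrays run from 7.72 to 8.80 for Ppara. The germ-free preweaned samples read 8.72 and 13.20 for Angptl4.

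In germ-free ileum, 12 of the 30 genes were 2-fold or more lower after weaning and 2 higher, Angptl4 and Vnn1, beside 12.7% of all genes lower and 11.6% higher. The median was -0.30, against -0.00 over all genes. For 8 of the 12 the difference exceeded the gap of the pair (9.69% of all genes). limma called 0 genes (0%), with 927 at an unadjusted p under 0.05, among them Acadl, Acaa2 and Acaa1b (adjusted p = 0.598 each). The count depended on the germ-free preweaned sample it was set against. Against the first, 12 were lower and 4 higher, with 17% of all genes lower and 16% higher. Against the second, 9 were lower and 1 higher, with 10.1% and 8.59% of all genes.

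Genes lower by 2-fold or more in both settings numbered 10, beside 2.74% of all genes, and were Pdk4, Cpt1a, Slc25a20, Acadl, Acaa2, Eci2, Acaa1b, Acot1, Acot2 and Plin2. Set pair by pair on fitted values, 7 of them, Pdk4, Acadl, Acaa2, Eci2, Acaa1b, Acot1 and Plin2, were 2-fold or more lower in each of 3 pairs of samples (SPF, and germ-free against each of its preweaned samples, which share the postweaned one), beside 1.12% of all genes. For Acot1, undetected after weaning, the level was at least 19.6-fold lower than in germ-free preweaned 1 while against germ-free preweaned 2 the bound is -0.58 on the log2 scale, short of 2-fold. For Pdk4 the difference from germ-free preweaned 1 (-1.17) is -0.17 against its first column set and -2.17 against the second, so 2-fold is lost against the first. Cpt1a (-0.45), Slc25a20 (-0.79) and Acot2 (-0.11) missed that mark against germ-free preweaned 2. By order alone, 13 of 30 genes had both postweaned samples below all 4 preweaned ones, beside 13.3% of all genes, and 1 (Vnn1) had both above, beside 10.3%. The 13 include Acadvl, Acsl1 and Hadh.

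**Figure D3:**
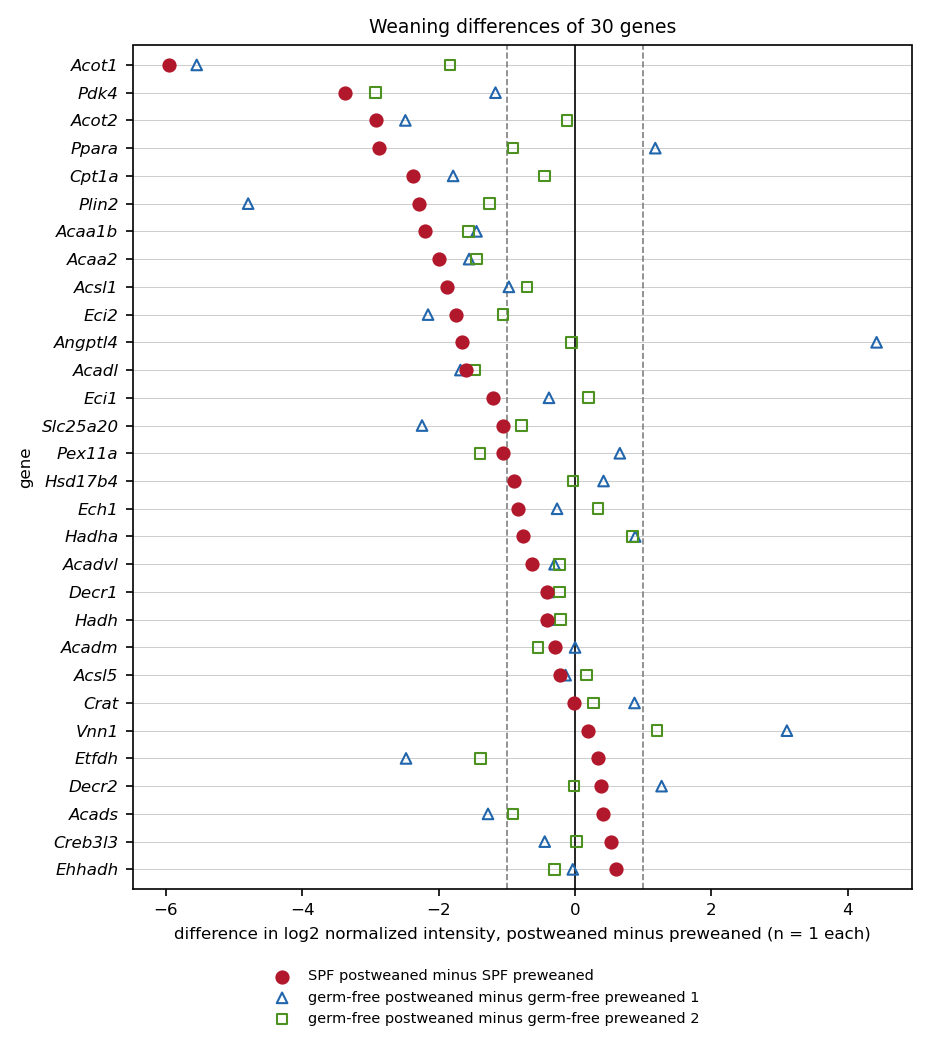
Weaning differences of 30 genes, postweaned minus preweaned in log2 normalized intensity (horizontal axis), 1 sample on each side. Filled circles are SPF ileum, triangles and squares germ-free ileum against germ-free preweaned 1 and 2, dashed lines mark 2-fold, and genes are ordered by the SPF difference. At the top Acot1 reads -5.96, -5.55 and -1.83, all 3 drawn at the fitted value although Acot1 was undetected after weaning and each is known only as a bound, while Angptl4 spreads from -1.65 through -0.05 to 4.42.

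Whether weaning differed between SPF and germ-free ileum was tested as the interaction. It was 2-fold or more negative for 11 genes and positive for 2, beside 16.9% and 17.5% of all genes, with a median of -0.54 against -0.03. limma called 0 genes (0%), and of 771 genes with an unadjusted p under 0.05 none (0) was on the list. The negative end was held by Angptl4 (-3.83, limma SE 3.28, adjusted p = 0.814) and Ppara (-3.01, SE 1.62, adjusted p = 0.763), and the positive end by Etfdh (2.26, SE 0.99, adjusted p = 0.763). Ppara was lower after weaning in SPF ileum by 2.88, and in germ-free ileum by 0.91 against preweaned 2 but not against preweaned 1 (1.18).

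Before weaning, SPF ileum had 7 of the 30 genes 2-fold or more higher and 1 lower than germ-free ileum, beside 11.5% of all genes higher and 11.1% lower. The 7 were Ppara, Angptl4, Pdk4, Hadha, Acaa1b, Acot1 and Acot2, and the lower one was Etfdh. The median was 0.43, against -0.03 over all genes. After median scaling in place of quantile normalization it was -0.15, with all genes at -0.26. Hadha had near-equal levels in the germ-free pair, at 10.19 in SPF against 8.36 and 8.40 in germ-free preweaned ileum, a difference of 1.81 (limma SE 0.39, adjusted p = 0.491), though its arrays varied by 0.44 (SD) within the SPF sample. The humanized sample, which carries microbes, was as low for Hadha (8.60). After weaning, germ-free ileum (9.25) was close to SPF ileum (9.43). Acaa1b was higher by 1.40 (SE 0.40, adjusted p = 0.502). For the other 5 higher genes the gap between the germ-free samples was larger than the difference (10.2% of all genes were higher and 9.41% lower beyond it). Against germ-free preweaned 1 alone 8 were higher and 3 lower, beside 15.2% and 14.6% of all genes, and against 2 alone 7 and 0, beside 12.6% and 13%. limma called 0 genes (0%), with 1182 at an unadjusted p under 0.05, of which 2 were Hadha and Acaa1b. Of the 30 genes, 13 had their highest level of all samples in SPF preweaned ileum, beside 18.2% of all genes, 8 in the first germ-free preweaned sample (24%) and 0 in the other (9.32%).

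The humanized sample had 3 genes 2-fold or more higher (Ppara, Angptl4, Pex11a) and 2 lower (Acot2, Plin2) than the germ-free pair before weaning, beside 4.16% and 2.34% of all genes. None (0) of the 5 exceeded the pair's gap, beside 1.88% of all genes higher and 0.336% lower. Against germ-free preweaned 2 alone, Acot1 was the only gene of the 30 at 2-fold (1.14 higher), beside 1.48% of all genes higher and 0.418% lower. Against germ-free preweaned 1 it was 6 higher and 4 lower, beside 10.2% and 8.16%. The humanized and germ-free preweaned 2 arrays are numbered in sequence in the headers, and the same numbers recur on the germ-free preweaned 1 arrays. The gap of the germ-free pair, and each limma SE drawn from it, thus crosses 2 runs of array numbers. The part of this in the differences and in the gap was not tested. Set against SPF preweaned ileum, the humanized sample had 1 gene higher (Etfdh) and 5 lower, beside 15.3% and 14.6%. The 5 were Acot1 (6.94-fold), Acot2 (6.16-fold), Hadha (3.02-fold), Plin2 (2.79-fold) and Acaa1b (2.04-fold). limma called 0 genes (0%) in both comparisons, with 70 and 1241 genes at an unadjusted p under 0.05, of which 0 and 1 (Hadha) were on the list.

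After weaning, SPF ileum had 1 gene 2-fold or more higher (Etfdh, 2.19-fold) and 4 lower than germ-free ileum, beside 9.02% and 6.37% of all genes. The 4 were Angptl4 (5.12-fold), Ppara (2.75-fold), Vnn1 (2.18-fold) and Eci1 (2.08-fold). Angptl4 is known in mouse gut as a gene that microbes lower, and here it was at 10.79 in SPF against 13.14 in germ-free postweaned ileum, a difference of -2.36 beside a gap of 4.47 between the germ-free preweaned samples. Etfdh and Eci1 exceeded their own gap between the germ-free preweaned samples (8.14% of all genes higher and 5.05% lower), and the other 3 did not. limma called 0 genes (0%), with 521 at an unadjusted p under 0.05 and 0 of them on the list.

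Outside the set, genes of ketone metabolism also differed over weaning. Oxct1, the enzyme that lets cells burn ketones, was at 12.39 in SPF and 12.10 in germ-free postweaned ileum, and at 11.30 in humanized, 9.68 in SPF and 10.41 and 11.33 in germ-free preweaned ileum. Both postweaned samples lay above all 4 preweaned ones. Oxct1 was 6.52-fold higher after weaning in SPF and 2.35-fold higher in germ-free ileum. Of the 4 ketone genes measured 2 were 2-fold or more lower and 1 higher, in either setting, beside 8.64% lower and 10.5% higher of all genes in SPF and 12.7% and 11.6% in germ-free ileum. The lower ones in SPF ileum were Bdh1 (6.63-fold), which makes hydroxybutyrate, and Acat1 (3.20-fold), a thiolase. Elsewhere in the Acot cluster, only Acot5 was at least 2-fold lower after weaning in SPF ileum once undetected signal was bounded. Acot5 was at least 4.79-fold and Acot3 at least 1.46-fold lower in SPF ileum, Acot4 was 1.84-fold lower, and Acot6 was detected in neither SPF sample.

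**Figure D4:**
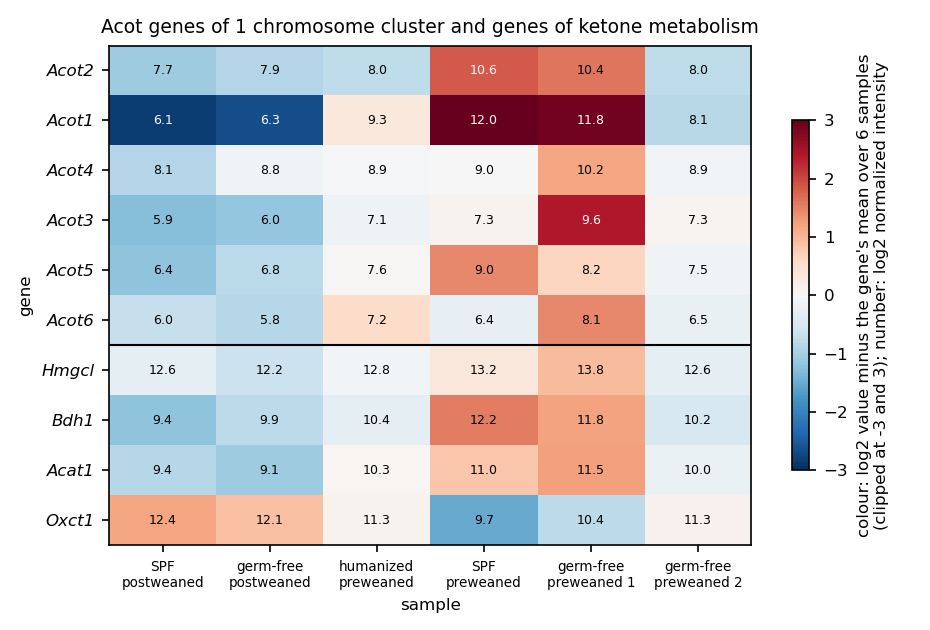
Levels of the 6 Acot genes of the chromosome 12 cluster, in chromosome order from Acot2 to Acot6, and of 4 ketone genes, in the 6 samples. Numbers are log2 normalized intensity and colours the distance from each gene's mean. Oxct1 reads 12.39 in SPF postweaned and 9.68 in SPF preweaned ileum.

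The further lists held differences in both directions, counted here on fitted values beside 8.64% of all genes lower and 10.5% higher after weaning in SPF ileum. Of 30 peroxisomal genes outside the set, 5 were 2-fold or more lower and 0 higher after weaning in SPF ileum, among them Pecr (10.2-fold), an enoyl-CoA reductase, Acox2 (5.34-fold), a branched-chain oxidase, the membrane protein gene Pxmp2 (2.66-fold) and the catalase gene Cat (2.49-fold). Of 23 further PPAR targets 5 were lower and 0 higher, including Me1, the malic enzyme (9.23-fold), and Retsat, a retinol saturase (3.29-fold), besides Acot3, a gene of the Acot cluster. Of 14 further mitochondrial genes, 1 was lower (Acad12, 2.32-fold) and 1 higher (the carnitine importer gene Slc22a5, 3.21-fold). Of 15 other thioesterases and synthetases 3 were lower and 2 higher, Acot7 (2.45-fold) and Acsl4 (at least 2.31-fold). Of 17 nuclear receptors and cofactors 1 was lower, Esrra (2.04-fold), and 1 higher, Lpin2 (2.81-fold). The 75 respiratory chain genes, which share the organelle, had a median of -0.36 with 6 lower and 1 higher. limma called 0 genes on every one of these lists (0% of all genes). Cpt2, the inner carnitine transferase, read 14.1 in the humanized and both germ-free preweaned samples and between 5.65 and 5.72, undetected, in the other 3, a split that follows neither weaning nor microbes. Across that split 0 of the 30 genes were 2-fold or more apart without overlap, beside 3.21% of all genes, and 4 (Acaa2, Acads, Etfdh and Hadha) did not overlap at all, beside 36.6% of all genes.

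Several other measures differed between the samples alongside these genes. Acot1, Acot2 and Plin2 were highest in SPF preweaned ileum and germ-free preweaned 1, the samples with most suckling marker signal and least Dbp. The 8 mature brush border markers summed to 117566 in SPF and 94447 in germ-free postweaned ileum, against 112996 in humanized, 74920 in SPF and 8250 and 112225 in germ-free preweaned ileum. Markers of T and NK cells summed to 71699 in SPF postweaned and 5261 in germ-free postweaned ileum, against 580 to 5677 in the preweaned samples. The 6 liver markers tested summed to 1538 in SPF and 549 in germ-free postweaned ileum, against 3674 in humanized, 5519 in SPF and 36943 and 1681 in germ-free preweaned ileum. Ttr carried the high value (14.75 in germ-free preweaned 1), while Alb, the defining liver gene, was detected on 2 of 21 arrays. The 4 smooth muscle markers tested summed to 7100 in humanized and 2470 in germ-free preweaned 2, against 156 to 676 elsewhere, and the 2 pancreatic acinar markers tested to 4558 in germ-free preweaned 1, against 76 to 643 elsewhere. Of 8 fat cell markers 7 were not tested for lack of signal or probe, Adipoq and Plin1 among them, and Cidec, the one measured, was at 12.07 to 13.27. The part of cell makeup, maturity, time of day or sex in the differences was not tested. Ddx3y and Uty were undetected in both postweaned samples and detected in every preweaned sample, in germ-free preweaned 1 in 1 of its 2 column sets.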

How the data were processed

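Raw intensities of 26423 probes on 21 arrays were deposited by the authors with a background already subtracted, to judge by values below 0 (the lowest is -14), together with a detection p-value and a flag per spot, per the file headers. The image software and how background was removed are not given in the sources used. RNA had an integrity number of 8 or more, and 2.5 µg was labelled, per the labels' protocols. Symbols came from the annotation version naming most probes: 22553 had 1 symbol, 237 several and 3633 none, and the last 2 kinds were left out. Symbols were updated with a RefSeq table (GRCm38.p6).

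Arrays were quantile-normalized, values below 0 set to 0, an offset of 50 added and log2 taken. Arrays were averaged within column sets, and sets within samples. A probe was above background in a sample if most of its arrays had a detection p-value under 0.05, and was tested if so in at least 1 sample. A gene was its tested probe with the highest mean. limma 3.58.1 (R 4.3.3) fitted group means over all 6 samples for 7 contrasts, 2-sided, with Benjamini-Hochberg adjustment over 12196 genes; counts at 2-fold are descriptions. A bound takes the lowest detected signal of each array in place of an undetected probe. The fit was run on simulated data in which all genes had the same spread, which checks the code and not the calls on these data. Members and lists were chosen with earlier results of these data known. The 14 genes with the largest range over samples are given value by value, and in each further list up to 4 genes at 2-fold; Acadl, Hadha, Acot4, Acot6 and Cpt2 were added after their values were seen. The normalization, offset, filter, probe choice, column sets, samples and model were varied. A gene of the further lists is not reported here and is left out of their counts.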

Additional observations from a re-analysis of the deposited data

Results flagged for a closer look

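For 5 genes, weaning went opposite ways in SPF ileum and in germ-free ileum set against either preweaned sample, as it did for 4581 genes in all (37.6%). The interaction of weaning and microbiota was 2.26 for Etfdh (limma SE 0.99, adjusted p = 0.763), 1.51 for Acads (SE 0.66, adjusted p = 0.763), -1.63 for Hadha (SE 0.60, adjusted p = 0.761), 0.77 for Ehhadh (adjusted p = 0.807) and -0.58 for Crat (adjusted p = 0.867). None (0) of the 5 passed the test, and Crat was not detected in SPF or germ-free preweaned ileum. Etfdh, Acads and Hadha also did not overlap across the split of samples described for Cpt2, beside 36.6% of all genes. The germ-free weaning comparison crosses that split and the SPF one does not, and the part of this was not tested. Etfdh was 0.33 higher after weaning in SPF ileum and differed by -2.48 and -1.39 in germ-free ileum. Hadha differed by -0.77 in SPF ileum and by 0.88 and 0.84 in germ-free ileum. Its arrays varied by 0.80 (SD) within the SPF postweaned sample, 0.71 within the germ-free postweaned and 0.44 within the SPF preweaned one, so the SPF and germ-free differences are about as large as the spread between arrays.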

How the results depend on the processing

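No paired analysis was possible because the labels do not link a sample of 1 group to a sample of another. Among the gene differences recomputed under the alternatives 2544 kept their direction and their side of 2-fold, 70 dropped below it, 65 passed it and 7 turned. Median scaling gave medians over the 30 genes of -0.64 for weaning in germ-free ileum, -0.20 for SPF over germ-free ileum after weaning and -0.15 before it (5 genes at 2-fold), 0.32 for humanized over SPF and -0.18 for the interaction. The series matrix holds unscaled means, so all genes shifted with the set. There the medians were -1.38 for weaning in SPF (all genes -0.42) and -0.43 in germ-free ileum (all genes -0.05). Relative to that shift, 15 genes were lower and 0 higher in SPF ileum. SPF over germ-free ileum gave 0.39 after weaning (all genes 0.46) and 1.07 before it (all genes 0.77). In the latter 16 genes were higher, beside 39.5% of all genes, and relative to the shift 7 were higher and 1 lower. Humanized over SPF gave -0.71 (all genes -0.66) with 11 genes lower, beside 36.2%, and relative to the shift 4 were lower and 2 higher. The median was 0.27 for humanized over germ-free ileum (all genes 0.11) and -0.87 for the interaction (all genes -0.35). Genes above background in all 6 samples gave 0.076 for SPF over germ-free after weaning. The additive fit gave -0.51 for weaning and 0.091 for microbiota, with 3 genes at 2-fold between SPF and germ-free ileum, Angptl4 at 0.54 for weaning and -0.17 for microbiota before it, and Etfdh at -0.16, Ppara at 0.26 and Vnn1 at 0.0035 after it. Without germ-free preweaned 1 or 2, Angptl4 ranged from -0.053 to 4.42 for weaning in germ-free ileum and from -0.76 to 3.71 for SPF over germ-free before weaning, the median of that comparison from 0.28 to 0.36, and humanized over germ-free from 1 to 10 genes. Added after seeing the data, the additive fit without germ-free preweaned 2 called 224 genes for weaning (127 lower), 1 for microbiota, 48 for humanized over germ-free and 31 over SPF ileum, and without germ-free preweaned 1 it called 0. Without germ-free preweaned 2 each group holds 1 sample, so these calls rest on the departure from additivity and not on a spread between samples. The members named next were picked because that fit called them. Their weaning differences in it were -5.75 for Acot1, -3.54 for Plin2 and -2.70 for Acot2. The sample left out held the lower of the 2 germ-free preweaned levels of each of these genes. The causes were not tested. Signal limits Acot1 after weaning to a bound, and high signal limits Acaa2 and Hadh.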
